A study of Homo sapiens with 42 samples.

Results

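Adenosine deaminase (ADA) and 8 other enzymes that handle adenosine, deoxyadenosine and purine bases were followed in RPMI-8226, an established human multiple myeloma cell line, that is, a line of malignant plasma cells. The genes were ADA, ADK, PNP, DCK, HPRT1, APRT, AMPD2, NT5E and SAMHD1, and every probe set annotated to one of these symbols was taken: 21 of 54613 probe sets on the array. ADA was included because its signal fell when the BMI1 hairpin was switched on, so its doxycycline values in that line are given as a description and were not tested. Probe sets reaching the array's own median on 3 or more of 42 arrays were retained for testing, which left 18 of the 21, with at least 1 for each of the 9 genes. The 3 others (1 each of HPRT1, NT5E and SAMHD1) were never at or above the median of an array.

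The cells had been stably infected with a doxycycline-inducible short hairpin RNA (shRNA) against BMI1, a subunit of Polycomb repressive complex 1, which silences genes by modifying histone H2A, or with an inducible control shRNA. Each hairpin was carried by 1 infected line. Transcripts were read on Affymetrix U133 Plus 2 arrays, in 14 groups of 3 arrays. In each line 4 groups had no doxycycline (0, 24, 32 and 48 h) and 3 had 100 ng/ml doxycycline (24, 32 and 48 h). Labels conflict for the 3 arrays taken as undosed BMI1-shRNA cells at 0 h: their title states no doxycycline, their characteristics state doxycycline, and their source name belongs to the control line. They were grouped by title. The single contrast they entered is that of 48 h with 0 h. They also count in the variance, the filter, the plots, the correlations and the values over a whole line. Where a result rests on them, the ADA range and the correlations with ADA are also given without them. Marker signals over a whole line include them. Whether replicates were separate cultures is not given, and p-values therefore describe the spread between arrays alone, which may be technical.

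BMI1 itself was read by probe set 202265_at, which is also annotated to the readthrough transcript COMMD3-BMI1. Its signal was 139.8 to 234 on the 9 dosed arrays of the BMI1-shRNA line and 758.3 to 1128.8 on the 9 undosed ones of the same times. Expression of the targeted gene was lower by 4.39-fold at 24 h, 5.72-fold at 32 h and 6.26-fold at 48 h. In the control-shRNA line doxycycline moved it by 0.03 ± 0.058 (log2, SE; limma adjusted p = 0.981). Median array signal was 16 to 22.5, and correlations across probe sets between arrays of a group were 0.968 to 0.981. Of 9 plasma cell markers, 8 were retained, and their summed signal was 18333.8 to 24005.6 in the control-shRNA line and 17152.2 to 25518.9 in the BMI1-shRNA line. JCHAIN and MZB1 made up most of these sums. CD38 read 241.7 ± 36.7 in the control-shRNA and 509.1 ± 78.4 in the BMI1-shRNA line (signal, SD, n = 21 each). Means of IRF4, PRDM1 and JCHAIN were also higher in the BMI1-shRNA line, by less, and those of SDC1, TNFRSF17, XBP1 and MZB1 were lower. Summed signal of the retained T cell (3 of 5), monocyte (1 of 5), erythroid (2 of 4) and fibroblast (3 of 5) markers did not exceed 200.8 on any array. The epithelial list was bright in both lines (3 of 4 retained; 3963.3 to 5550.3 in the control-shRNA line and 5243.6 to 6536.7 in the BMI1-shRNA line), through EPCAM and KRT18.

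Purine nucleosides are either broken down or salvaged. ADA deaminates adenosine and deoxyadenosine, PNP splits the resulting inosine and deoxyinosine into base and sugar phosphate, and HPRT1 and APRT join free bases to phosphoribosyl pyrophosphate to make nucleotides again. Along the competing route ADK phosphorylates adenosine, and DCK phosphorylates deoxycytidine, deoxyadenosine and deoxyguanosine. SAMHD1 hydrolyses deoxynucleoside triphosphates, AMPD2 deaminates AMP to IMP, and NT5E (CD73) on the cell surface releases adenosine from AMP. Inherited loss of ADA lets deoxyadenosine and dATP build up and causes severe combined immunodeficiency, since lymphoid cells phosphorylate deoxyadenosine readily.

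In the BMI1-shRNA line the ADA signal was lower with doxycycline than without it at each of 24, 32 and 48 h, and it was lowest at 48 h. The brighter probe set, 204639_at, read 660.3, 666.8 and 706.1 without doxycycline at 24 h and 333.8, 399.6 and 329.2 with it. At 32 h the undosed arrays read 646.3, 664.8 and 675.3 and the dosed ones 286.9, 289.5 and 330.1. At 48 h they read 665.7, 736 and 717.3 without and 243.6, 210.1 and 211.3 with doxycycline. No dosed array reached the lowest undosed one at any time, and the highest dosed value, 399.6, lay far below the lowest undosed value, 646.3. The mean over the 3 times was 292.7 ± 63 with doxycycline and 682.1 ± 30.3 without it (signal, SD, n = 9 arrays each). The log2 fold change was -0.93 ± 0.077 at 24 h, -1.12 ± 0.077 at 32 h and -1.65 ± 0.077 at 48 h (SE), that is, 1.91-, 2.17- and 3.14-fold lower. Over the 3 times it was -1.23 ± 0.045, or 2.35-fold lower. The effect at 48 h exceeded that at 24 h by -0.72 ± 0.109 on the log2 scale. All fold changes are on the scale log2(signal + 5.4), which understates changes of dim probe sets, the more so the dimmer they are.

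The other ADA probe set, 216705_s_at, followed the same course with more scatter. Its log2 fold change with doxycycline was -0.43 ± 0.136 at 24 h, -1.01 ± 0.136 at 32 h and -1.37 ± 0.136 at 48 h. Dosed arrays read 390.1 to 445.8 at 24 h, 298.5 to 321.1 at 32 h and 234.7 to 275.9 at 48 h, each time below every undosed array. The undosed 48 h arrays were widely spread, at 883.2, 688 and 505.5. Without the first of these the 48 h change was -1.18, and without the third it was -1.57. Over all 42 arrays the log2 values of both ADA probe sets had a Pearson correlation of 0.94 (0.944 over 39 arrays, without the BMI1-shRNA 0 h arrays), a description, since all arrays of a line and dose share that line and dose.

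Doxycycline together with the control hairpin did not move ADA detectably in the control-shRNA line. Probe set 204639_at averaged 943.2 ± 54 with and 925.8 ± 78 without doxycycline (SD, n = 9 each), and both sets of arrays overlapped throughout. The log2 fold change was 0.03 ± 0.045 (95% interval -0.06 to 0.12; limma adjusted p = 0.976), and for 216705_s_at it was -0.07 ± 0.079 (adjusted p = 0.954). The difference of doxycycline effects, BMI1-shRNA line minus control-shRNA line, was -1.26 ± 0.063 for 204639_at and -0.86 ± 0.111 for 216705_s_at. Time in culture without doxycycline moved 204639_at by 0.03 ± 0.077 from 0 to 48 h in the control-shRNA line (limma adjusted p = 0.922). Probe set 216705_s_at moved by 0.21 ± 0.136 there (adjusted p = 0.476), although its 0 and 48 h arrays did not overlap. In the BMI1-shRNA line the values were 0.14 ± 0.077 for 204639_at and 0.28 ± 0.136 for 216705_s_at. These are given without a test because they rest on undosed arrays by which ADA was chosen.

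**Figure D1:**
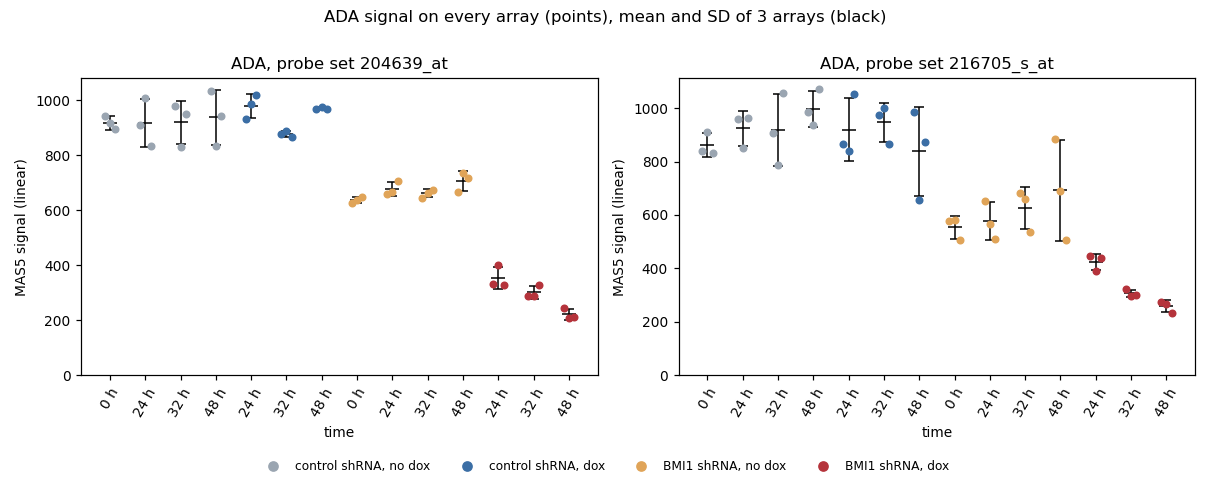
MAS5 signal (linear, arbitrary units) of both ADA probe sets on each of the 42 arrays (points) by line, doxycycline and time, with the mean and SD of the 3 arrays of a group (black). The dosed arrays of the BMI1-shRNA line step down from 24 to 48 h, the undosed ones of that line, 0 h included, lie at 628.1 to 736 for 204639_at, and all control-shRNA arrays lie at 831.3 to 1035.8.

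ADA was also lower in the BMI1-shRNA line before any doxycycline. Probe set 204639_at read 646.3 to 736 on the 9 undosed arrays of that line at 24, 32 and 48 h and 831.3 to 1035.8 on all 21 arrays of the control-shRNA line, dosed or not, with no overlap. The 3 arrays titled 0 h, whose labels conflict, read 628.1 to 649.2. Over 24, 32 and 48 h without doxycycline 204639_at was 1.35-fold lower (log2 -0.43 ± 0.045, SE), and 216705_s_at was lower by -0.59 ± 0.079, here with overlapping arrays. Both values are given without a test, because they rest on the undosed arrays of the doxycycline contrast by which ADA was chosen. BMI1 differed in the same direction, by -0.32 ± 0.058 (limma adjusted p = 2.12e-05). Each hairpin was carried by 1 line, so hairpin and line cannot be told apart in these values.

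DCK, which phosphorylates deoxyadenosine and deoxycytidine, was the only gene of the other 8 with a called change under doxycycline in the BMI1-shRNA line: it fell. Probe set 203302_at read 407, 338.7 and 321.1 without and 296.7, 301.1 and 340 with doxycycline at 24 h. At 32 h it read 384.8, 398.6 and 354.9 without and 249.3, 240.3 and 296.9 with doxycycline. At 48 h it read 368, 380.9 and 399.4 without and 223.5, 251.5 and 253 with doxycycline. Dosed and undosed arrays overlapped at 24 h and were apart at 32 and 48 h. The log2 fold change was -0.18 ± 0.092 at 24 h (limma adjusted p = 0.559), -0.53 ± 0.092 at 32 h (adjusted p = 0.000303) and -0.65 ± 0.092 at 48 h (adjusted p = 4.78e-06). Over the 3 times DCK fell 1.37-fold (log2 -0.45 ± 0.053; adjusted p = 5.6e-08), from a mean signal of 372.6 ± 29.4 to 272.5 ± 37.7 (SD, n = 9 each). The larger effect at 48 h than at 24 h, -0.47 ± 0.13, did not pass (adjusted p = 0.142), although it did without the first undosed 24 h array (-0.57; adjusted p = 0.0491).

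In the control-shRNA line DCK averaged 456.8 ± 41 with and 444.3 ± 33.6 without doxycycline (SD, n = 9 each), a log2 difference of 0.04 ± 0.053 (limma adjusted p = 0.972). The doxycycline effects of both lines differed by -0.49 ± 0.075 (95% interval -0.64 to -0.34; adjusted p = 2.5e-05). Undosed DCK, like undosed ADA, was lower in the BMI1-shRNA line, by -0.25 ± 0.053 (adjusted p = 0.000198), with overlapping arrays. DCK thus had its highest signal in the control-shRNA line, a lower one in the undosed and the lowest in the dosed BMI1-shRNA line, the same order as ADA. As a sign of RNA quality, 3-prime over 5-prime GAPDH signal was 0.93 ± 0.0311 on the dosed and 0.941 ± 0.0216 on the undosed arrays of the BMI1-shRNA line (SD, n = 9 each), and its part in these results was not tested.

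**Figure D2:**
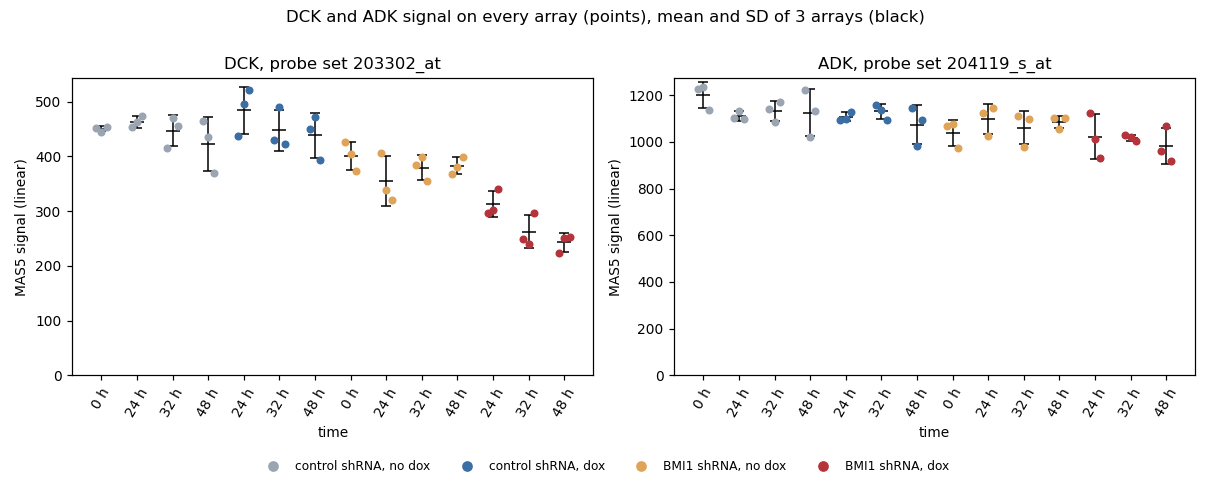
MAS5 signal (linear, arbitrary units) of DCK (203302_at) and ADK (204119_s_at) on each array (points) by line, doxycycline and time, with the mean and SD of 3 arrays (black). Dosed DCK arrays of the BMI1-shRNA line fall to 223.5 to 253 at 48 h, while ADK stays between 918.5 and 1236 on all arrays.

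The promoters of the genes that fell are shown with that of HPRT1, a gene with no called change, to let the letters be compared. Each is the 250 bases upstream of the RefSeq transcription start on GRCh38.p14, written 5′ to 3′ on the strand of the gene, and capitals mark every GC box core, GGGCGG or its reverse complement CCGCCC, where neighbouring matches may share 1 base. The windows are chr20:44651700-44651949 on the minus strand for ADA, chr4:70993399-70993648 on the plus strand for DCK and chrX:134459915-134460164 on the plus strand for HPRT1.
ADA: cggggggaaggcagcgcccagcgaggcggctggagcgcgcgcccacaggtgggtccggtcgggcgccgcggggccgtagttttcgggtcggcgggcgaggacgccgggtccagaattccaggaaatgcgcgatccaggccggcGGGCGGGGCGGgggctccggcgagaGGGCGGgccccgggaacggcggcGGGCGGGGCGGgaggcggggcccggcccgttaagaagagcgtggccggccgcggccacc
DCK: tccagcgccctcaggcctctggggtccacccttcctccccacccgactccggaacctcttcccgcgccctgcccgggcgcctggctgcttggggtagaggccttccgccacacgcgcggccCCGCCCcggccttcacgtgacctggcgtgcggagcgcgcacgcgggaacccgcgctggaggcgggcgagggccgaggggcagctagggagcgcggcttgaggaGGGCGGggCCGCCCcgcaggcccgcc
HPRT1: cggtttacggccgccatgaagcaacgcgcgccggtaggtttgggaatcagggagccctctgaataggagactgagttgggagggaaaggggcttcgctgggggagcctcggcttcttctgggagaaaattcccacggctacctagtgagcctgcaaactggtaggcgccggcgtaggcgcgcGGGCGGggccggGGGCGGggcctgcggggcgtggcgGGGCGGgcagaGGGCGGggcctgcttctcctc
ADA held 5 GC box cores, DCK 3 and HPRT1 4. Of 35116 such windows in the RefSeq table, 42.6% held at least 1 and 7.63% held 4 or more. The ADA window had a GC content of 80.0% and 41 CpG dinucleotides, the DCK window 78.0% and 31, and the HPRT1 window 68.8% and 24, against medians of 58.0% and 11 over all windows. The E box CACGTG, a palindrome, occurred in the DCK window and in 1 of the 4 AMPD2 windows, not in the ADA or HPRT1 window, and in 6.34% of all windows. TATAAA or its reverse complement TTTATA was in none of the 3 windows and in 10.7% of all. All 9 genes matched the table. The windows of ADK, PNP, APRT and NT5E, whose changes with doxycycline did not pass, also held 2 to 4 GC box cores; the 4 windows of AMPD2, likewise not called, held 0 to 3, and that of SAMHD1 held 0. These are matches of letters, not measured binding.

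The remaining enzymes gave no called change under the BMI1 hairpin. Of the 16 retained probe sets of the 8 genes other than ADA, 1 (DCK) was called over the 3 times by limma with Benjamini-Hochberg adjustment, beside 5.83% of all 35232 probe sets (3.39% lower). At an unadjusted p under 0.05 it was 3 of 16, beside 16.3% of all. At 24 h it was 0 of 16, beside 0.897% of all (2 of 16 unadjusted, beside 9.49%). It was 1 of 16 at 32 h, beside 1.38%, and 1 of 16 at 48 h, beside 3.83%, each time DCK (unadjusted, 2 of 16 beside 9.47% and 6 of 16 beside 13.9%). For the difference of doxycycline effects between the lines it was 1 of 16, again DCK, beside 2.53%. For 48 h against 24 h it was 0 of 16, beside 0.275% (5 of 16 unadjusted, beside 8.63%). In the control-shRNA line doxycycline changed 0 of 18 member probe sets, ADA included, beside 0.071% (1 of 18 unadjusted, beside 5.78%: the dim ADK probe set 204120_s_at). With a single called gene, the count over 3 times lies near the background share.

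**Figure D3:**
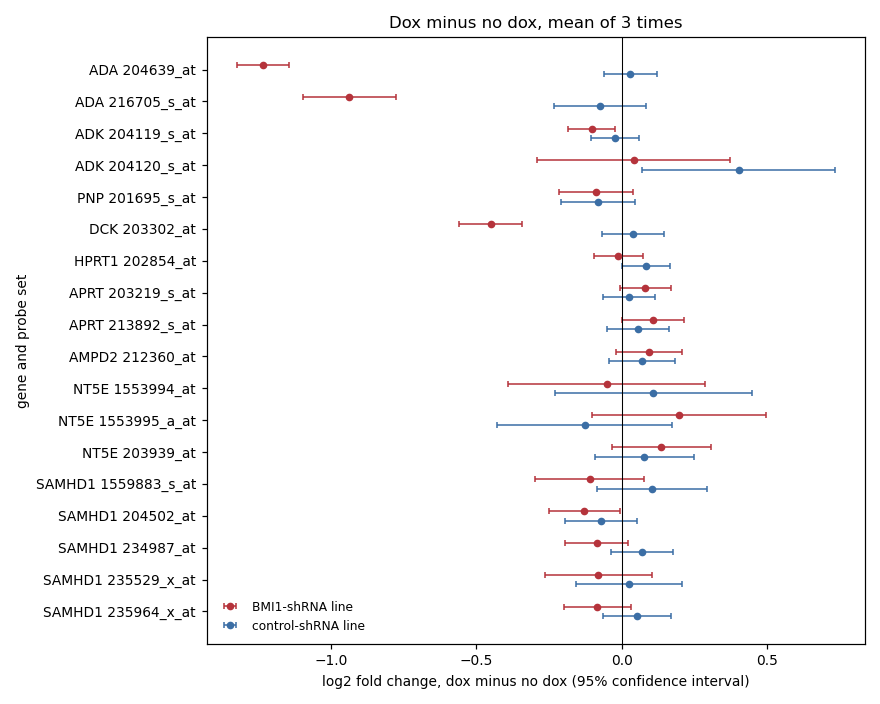
Log2 fold change with doxycycline over 24, 32 and 48 h (horizontal axis, with 95% confidence interval) for the 18 retained probe sets in the BMI1-shRNA line (red) and the control-shRNA line (blue). Both ADA probe sets (-1.23 and -0.94) and DCK (-0.45) lie left of the others in the BMI1-shRNA line, and the control-shRNA line shows no such shift.

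Adenosine kinase, which competes with ADA for adenosine, was bright and had no called change with doxycycline. ADK probe set 204119_s_at read 918.5 to 1123.6 (median 1012) on dosed and 978.3 to 1145.1 (median 1101) on undosed arrays of the BMI1-shRNA line. The sets overlapped, and the log2 change was -0.10 ± 0.04 (95% interval -0.19 to -0.02; limma adjusted p = 0.137). This interval, which is not adjusted for the number of probe sets, lay below 0. The second ADK probe set, 204120_s_at, was dimmer and noisier, 68.6 to 191.4 on the same arrays, with a change of 0.04 ± 0.164 (adjusted p = 0.947).

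Purine nucleoside phosphorylase, the step after ADA, read 413.4 to 557.5 (median 453.5) with and 409 to 546.7 (median 497) without doxycycline in the BMI1-shRNA line. Its log2 change over the 3 times was -0.09 ± 0.062 (95% interval -0.22 to 0.04; limma adjusted p = 0.543). By time, the PNP values ran from below to above their controls. At 24 h the dosed arrays (459.1, 453.5 and 444.8) were below all undosed ones (536.6, 546.7 and 539.5), by -0.26 ± 0.108 (adjusted p = 0.415). At 48 h the difference was 0.16 ± 0.108, and the change between these times, 0.42 ± 0.153, did not pass (adjusted p = 0.344).

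The base salvage enzymes HPRT1 and APRT were the brightest members. HPRT1 probe set 202854_at read 3765.9 to 4188.2 (median 3945) with and 3710 to 4256.3 (median 3902) without doxycycline in the BMI1-shRNA line, and these ranges nearly coincide. Its log2 change was -0.01 ± 0.041, with a 95% interval of -0.10 to 0.07 (limma adjusted p = 0.937). APRT read 1517.1 to 2032 with and 1458 to 1767.4 without doxycycline by 213892_s_at, a change of 0.11 ± 0.052 (95% interval 0 to 0.21; adjusted p = 0.307). By 203219_s_at the APRT change was 0.08 ± 0.044 (adjusted p = 0.371). Signals of different probe sets depend on their probes, so this order of brightness is one of signal and not of transcript number.

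AMPD2, the AMP deaminase on this list, read 161.5 to 236.7 (median 201.2) with and 165.9 to 199 (median 181.5) without doxycycline in the BMI1-shRNA line. The change was 0.09 ± 0.056 (95% interval -0.02 to 0.21; limma adjusted p = 0.442). NT5E, the ectonucleotidase CD73, was the dimmest gene by its best probe set, 203939_at, at 40.8 to 74.7 with and 35.4 to 67 without doxycycline. It changed by 0.14 ± 0.083 (95% interval -0.03 to 0.31; adjusted p = 0.45). The retained NT5E probe sets 1553994_at and 1553995_a_at read 8.1 to 28.9 in that line, around the median of an array, and their intervals were several times wider than that of HPRT1.

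SAMHD1, which removes the deoxynucleoside triphosphates that DCK helps to make, had 5 retained probe sets. All 5 had log2 changes a little below 0 over the 3 times, from -0.08 ± 0.057 (235964_x_at) and -0.08 ± 0.09 (235529_x_at) to -0.13 ± 0.061 (204502_at). They read the same gene and are not independent. None passed (limma adjusted p from 0.275 to 0.742). At an unadjusted p under 0.05 it was 1 of 5, beside 16.3% of all probe sets. At 48 h the 235964_x_at signal was 555.9, 551.9 and 560 with doxycycline and 654.8, 662.8 and 718.2 without it. These arrays did not overlap, yet the change of -0.28 ± 0.099 missed the threshold (adjusted p = 0.115). The 204502_at arrays were apart as well, at 228.8, 266.9 and 245.1 with and 310.1, 297.4 and 282.8 without doxycycline (-0.26 ± 0.105; adjusted p = 0.208). The other retained SAMHD1 probe sets overlapped at 48 h, and 1559883_s_at had a higher mean with doxycycline (124.6 against 117.2). At 24 h the means of 204502_at (330.3 against 296.8) and 235964_x_at (684.9 against 656.9) were higher with doxycycline. The share of all probe sets whose arrays were apart was not counted.

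Without doxycycline SAMHD1 was higher in the BMI1-shRNA line by all 5 retained probe sets, NT5E (by 2 of 3 probe sets) and DCK were lower, and ADA was lower as above. Of the 16 member probe sets without ADA, 9 were called (5 higher, 4 lower), beside 35.1% of all probe sets (17% higher, 18.1% lower). Several of the 16 read the same gene. With 1 probe set per gene, of 8 genes 1 was higher and 2 were lower, beside 42.6% of genes called, a share near the background. The lines also differed in the GAPDH ratio (1.03 ± 0.0401 in the control-shRNA and 0.935 ± 0.0251 in the BMI1-shRNA line, SD, n = 21 each) and in CDH1 (45.31 ± 8.87 against 376.6 ± 44), and the part of either in these differences was not tested.

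SAMHD1 showed the largest rise in the probe set 235964_x_at. It read 571.6 to 718.2 (median 656.1) in the undosed BMI1-shRNA line and 419.5 to 565.7 (median 484.3) in the undosed control-shRNA line, without overlap. The difference was 0.43 ± 0.057 (limma adjusted p = 5.71e-08). Probe set 234987_at gave 0.40 ± 0.053 (adjusted p = 5.25e-08), 1559883_s_at 0.34 ± 0.093 (adjusted p = 0.00285) and 235529_x_at 0.34 ± 0.09 (adjusted p = 0.00232). For 204502_at it was 0.15 ± 0.061 (adjusted p = 0.049), a call lost under quantile normalization (adjusted p = 0.0997), without the filter or the intensity trend, and in 12 of the 18 fits that left out 1 array (adjusted p 0.0504 to 0.143 in those). The suffix x_at marks probe sets whose probes may cross-hybridize, and 204502_at and 234987_at do not carry it.

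NT5E 203939_at read 35.4 to 67 in the undosed BMI1-shRNA line and 65.2 to 89.3 in the undosed control-shRNA line, so that the ranges just met. It was lower by -0.57 ± 0.083 (limma adjusted p = 4.9e-07), and the dim 1553995_a_at was lower by -0.54 ± 0.148 (adjusted p = 0.00365). The third retained NT5E probe set, 1553994_at, gave -0.37 ± 0.167 and did not pass (adjusted p = 0.0905). APRT was lower by 203219_s_at, by -0.13 ± 0.044 (adjusted p = 0.0191), but not by the brighter 213892_s_at (-0.01 ± 0.052; adjusted p = 0.958). The APRT call was lost without the second undosed 24 h array of the BMI1-shRNA line (adjusted p = 0.0642) and without the first undosed 48 h array of the control-shRNA line (adjusted p = 0.0702). ADK (204119_s_at, -0.05 ± 0.04), PNP (0.03 ± 0.062), HPRT1 (-0.07 ± 0.041) and AMPD2 (-0.09 ± 0.056) had no called line difference.

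**Figure D4:**
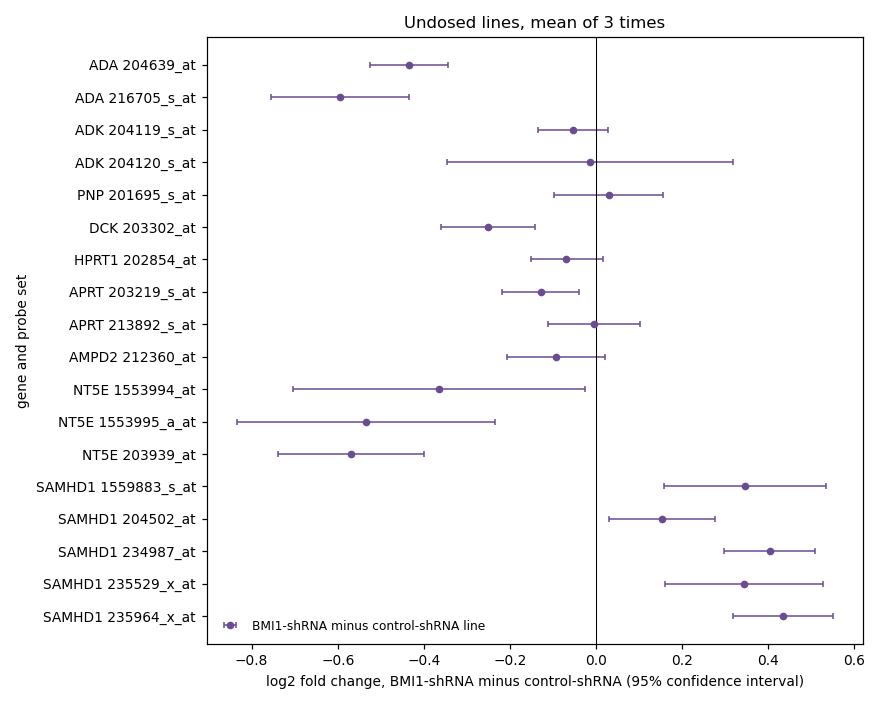
Log2 difference between the undosed lines, BMI1-shRNA minus control-shRNA, over 24, 32 and 48 h (horizontal axis, with 95% confidence interval) for the 18 retained probe sets. The 5 SAMHD1 probe sets lie right of 0 (0.15 to 0.43), and ADA, DCK and NT5E lie left of it (-0.25 to -0.59).

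**Figure D5:**
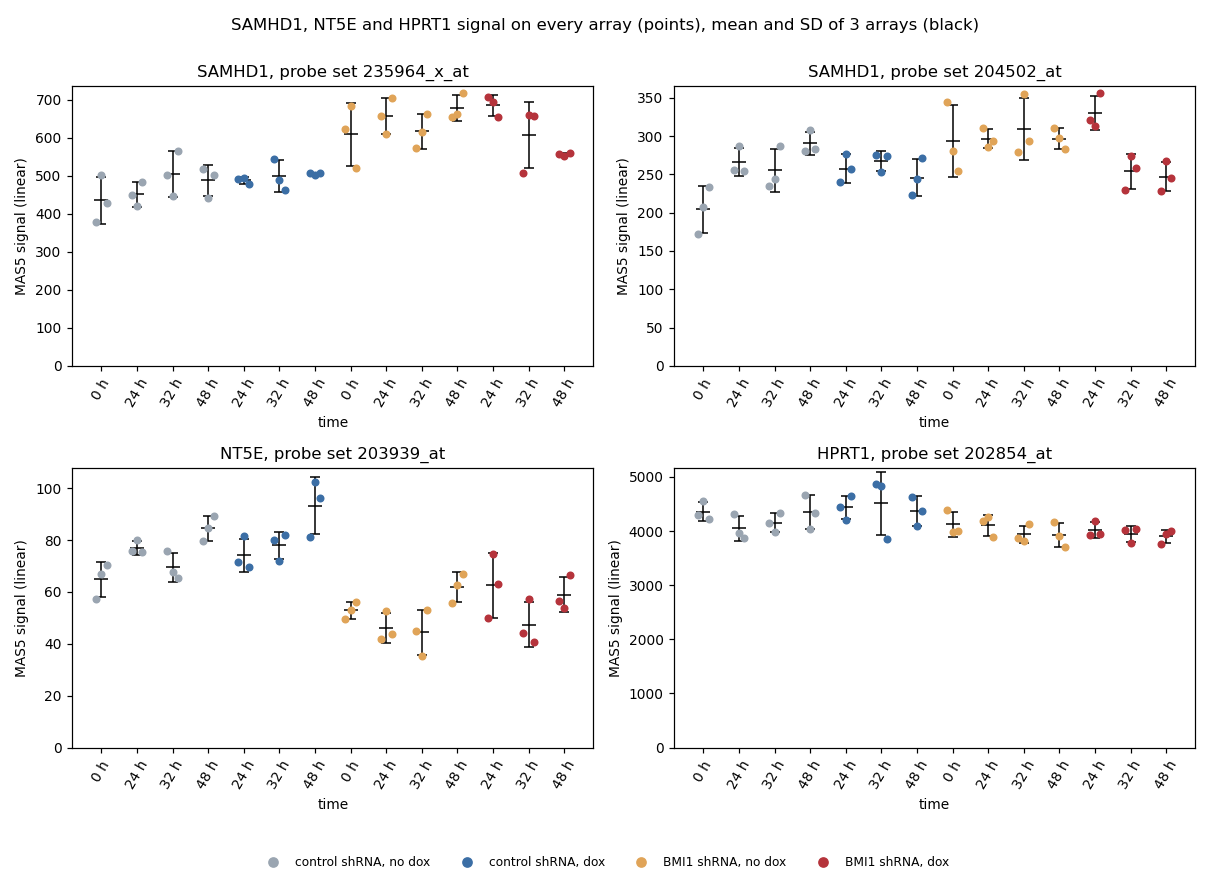
MAS5 signal (linear, arbitrary units) of SAMHD1 (235964_x_at and 204502_at), NT5E (203939_at) and HPRT1 (202854_at) on each array (points) by line, doxycycline and time, with the mean and SD of 3 arrays (black). SAMHD1 235964_x_at is higher and NT5E lower in the BMI1-shRNA line, dosed or not, while HPRT1 lies between 3710 and 4874.4 on all arrays.

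For time in culture without doxycycline, 1 member probe set was called, in the control-shRNA line. In the control-shRNA line SAMHD1 204502_at rose from 172.8, 206.8 and 233.7 at 0 h to 280.6, 307.6 and 283.8 at 48 h (0.51 ± 0.105; limma adjusted p = 0.00267), without overlap. This was 1 of 18 member probe sets, beside 3.56% of all, a share near the background. With 1 probe set per gene, 0 of 8 genes other than ADA were called, beside 4.44% of genes. The other 4 SAMHD1 probe sets gave -0.12 to 0.46 and did not pass (1559883_s_at 0.46 ± 0.161, adjusted p = 0.112). In the BMI1-shRNA line 0 of 16, ADA left out, were called, beside 2.53% (0 of 16 unadjusted, beside 15.8%), and SAMHD1 204502_at moved by 0.03 ± 0.105; the difference between the lines was not tested.

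Over the 14 group means, DCK had the pattern most like that of ADA among the members, with a Pearson correlation of log2 means of 0.974. ADK followed at 0.85, HPRT1 at 0.695, NT5E at 0.546, AMPD2 at 0.192 and PNP at 0.0351, and SAMHD1 and APRT ran the other way, at -0.391 and -0.436. Across all 14704 genes the 5 most alike were RO60 (0.985), FDX1 (0.983), RPS6KA2 (0.983), DEGS1 (0.981) and CUL5 (0.981). These 5 were lower with doxycycline in the BMI1-shRNA line by 0.46 to 0.96 on the log2 scale and lower in that line without it by 0.19 to 0.62. The group means share the lines and the doses, so these correlations describe a pattern and carry no test. Without the BMI1-shRNA 0 h group, over 13 group means, DCK had 0.977 and ADK 0.868, and RO60, FDX1 and RPS6KA2 stayed among the 5 most alike, with SPOPL (0.984) and ITGB1 (0.982) as the others.

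The other purine genes, in 5 lists, held 61 symbols, of which 50 could be tested. Under the BMI1 hairpin 4 of 50 changed over the 3 times (8%), 1 up and 3 down, beside 7.54% of genes, a share near the background. The median log2 change was -0.02 over the 50 and 0.02 over all genes. RRM2B, the ribonucleotide reductase subunit that supplies deoxynucleotides outside S phase, fell from 523 ± 52 to 420.6 ± 34.7 (signal, SD, n = 9 each; log2 -0.31 ± 0.051; limma adjusted p = 4.75e-05). AMPD3, a second AMP deaminase, fell from 272.3 ± 16.4 to 234.6 ± 24.8 (-0.22 ± 0.046; adjusted p = 0.00159). The nucleoside transporter SLC29A2 rose from 230.2 ± 25.6 to 287.8 ± 33.4 (0.32 ± 0.084; adjusted p = 0.0151), a call lost without the first dosed 24 h array (adjusted p = 0.0544). The adenylate kinase AK3 was called at -0.11 ± 0.034 (adjusted p = 0.048) and lost under quantile normalization (adjusted p = 0.0623), without the filter (0.0734), without the intensity trend (0.0779), without the BMI1-shRNA 0 h arrays (0.0563) and in 12 of 18 fits without 1 array (adjusted p 0.0559 to 0.127 in those).

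By list, the calls over the 3 times stand beside 7.54% of all genes called. De novo purine synthesis had 0 of 12 called (2 of 12 unadjusted, beside 18.8% of genes with an unadjusted p under 0.05). Breakdown and nucleotidases had 1 of 12 called, salvage and nucleotide kinases 1 of 7, deoxynucleotide supply 1 of 10, and transporters and receptors 1 of 9. At 24 h 0 of 50 were called, beside 1.23% of genes (3 of 50 unadjusted, beside 11.1%). At 32 h it was 1 of 50 (RRM2B), beside 1.84%, and at 48 h 3 of 50 (RRM2B, AMPD3 and the guanine deaminase GDA, each lower), beside 4.85%. The RRM2B call at 32 h was lost without the first (adjusted p = 0.0568) or the second dosed array of that time (0.0515), and the GDA call at 48 h without the third dosed array (0.069). The difference of doxycycline effects between the lines passed for RRM2B (-0.36 ± 0.072; limma adjusted p = 0.00188) and SLC29A2 (0.43 ± 0.118; adjusted p = 0.0355), 2 of 50 beside 3.31%. That of SLC29A2 was lost in 14 of 36 fits without 1 array (adjusted p 0.0502 to 0.0748 in those). In the control-shRNA line it was 0 of 50, beside 0.122% (4 of 50 unadjusted, beside 5.93%). From 0 to 48 h without doxycycline 4 of 50 changed in the control-shRNA line, beside 4.44% of genes: GDA (0.43) and the thymidine kinase TK1 (0.27) rose, and the thymidylate kinase DTYMK (-0.30) and the purine base transporter SLC43A3 (-0.24) fell. In the BMI1-shRNA line it was 3 of 50, beside 3.29%, with GDA (0.45) and the adenylate kinase AK1 (0.50) higher and SLC43A3 (-0.21) lower. The DTYMK call was lost in 4 of 6 fits without 1 array (adjusted p 0.0615 to 0.265), under quantile normalization (0.072), without the filter (0.0706), without the intensity trend (0.0852) and without the BMI1-shRNA 0 h arrays (0.0529), and the SLC43A3 call in the BMI1-shRNA line in 3 of 6 (0.0594 to 0.106).

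Between the undosed lines 30 of the 50 differed (60%; 18 higher and 12 lower in the BMI1-shRNA line), beside 42.6% of genes. ITPA, which hydrolyses inosine triphosphate, was 1367 ± 90.7 in the BMI1-shRNA and 706.5 ± 76.1 in the control-shRNA line (SD, n = 9 each; log2 0.95 ± 0.047; limma adjusted p = 2.7e-19). GDA (0.81 ± 0.047), AHCY, which releases adenosine from S-adenosylhomocysteine (0.59 ± 0.032), and RRM2B (0.54 ± 0.051) were also higher. The adenosine receptor ADORA2B (-0.70 ± 0.152), xanthine dehydrogenase XDH (-0.40 ± 0.049) and the synthesis enzymes PRPS1 (-0.33 ± 0.04) and GMPS (-0.27 ± 0.033) were lower. ADORA2B was dim, at 29.81 ± 10.1 against 49.66 ± 9.7. CDA, also called higher (10.54 ± 7.08 against 1.444 ± 0.743), and NT5C1A, called lower (6.456 ± 6.06 against 15.41 ± 8.87), had means below every array's median. The NT5C1A call was lost in 9 of 18 fits without 1 array. RRM2B thus differed between the undosed lines in the opposite direction to its doxycycline effect. So did AMPD3 (0.32 to 0.37 between the undosed lines over all settings) and GDA, whose fall was called at 48 h. ADA and DCK were lower in both comparisons, and SLC29A2 was higher in both. The comparisons share the undosed arrays of the BMI1-shRNA line with opposite sign, so scatter of these arrays pushes the values in opposite directions.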

How the data were processed

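Affymetrix U133 Plus 2 arrays, 1 per RNA sample, were read from the deposited table of linear intensity values, which are MAS5 signals per the submitters' processing notes (no version given). Trimmed means (2% off either end) lay at 150.02 to 150.03, that is, the arrays had been scaled to a common level. The number of arrays, 3 per group, limits the precision. From 54675 probe sets, 62 array controls were left out. Gene symbols came from the platform annotation, with 41091 probe sets naming 1 gene, 1801 several and 11721 none.

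Values were taken as log2(signal + 5.4), with 5.4 the lower quartile (percentile 25) of the table. In limma 3.58.1 (R 4.3.3), 1 model held 14 group means (eBayes with an intensity trend; 28 residual and 8.41 prior degrees of freedom), two-sided, adjusted by Benjamini-Hochberg over 35232 retained probe sets and called under 0.05. A count per gene uses its brightest retained probe set. The members, lists and comparisons were chosen with earlier results of these data known. All members are named; from each list, up to 4 called genes with the largest change were eligible, and the 5 genes most like ADA.

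On simulated data for doxycycline over 3 times in the BMI1-shRNA line, 35232 probe sets were drawn. Of the probe sets changed by log2 0.5, 60% were recovered, and 83% of those changed by log2 1, with 4 false calls among the unchanged ones. For the difference between the lines recovery was 41% and 63%, again with 4 false calls. Alternatives were other pseudocounts, quantile normalization, other filters, 1 probe set per gene, no intensity trend, leaving out the BMI1-shRNA 0 h arrays, a replicate block, and the omission of single arrays; correlations without the BMI1-shRNA 0 h arrays were added after seeing the data. No array pair held identical values.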

Additional observations from a re-analysis of the deposited data

Results flagged for a closer look

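DCK 203302_at differed between the lines in its response to doxycycline. The test of the difference itself over 24, 32 and 48 h gave -0.49 ± 0.075 (log2, SE; limma adjusted p = 2.5e-05), from -0.45 in the BMI1-shRNA line and 0.04 in the control-shRNA line. It lay between -0.52 and -0.46 over all settings and left-out arrays, with adjusted p from 6.46e-06 to 0.000152. No test for a single outlying array was run on the member values, since groups of 3 are too small for one.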

How the results depend on the processing

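Of 1978 values recomputed for BMI1, ADA and the called members and list genes, 1890 kept their direction and, where tested, their side of the threshold, 84 lost their call, 4 moved and 0 reversed. Uncalled member values lie outside this tally; of them, ADA left aside, DCK for 48 h against 24 h gained a call, as given above. The DCK fall over 3 times stayed between -0.48 and -0.42, with adjusted p from 1.6e-08 to 8.33e-07, and ADA 204639_at between -1.26 and -1.20. The 4 values that moved are ADA 216705_s_at without undosed 48 h replicate 1 or 3: at 48 h -1.18 and -1.57, and for 48 h minus 24 h -0.74 and -1.14. SAMHD1 204502_at between undosed lines ranged from 0.12 to 0.18 (adjusted p 0.0206 to 0.143). SLC29A2, for the difference between the lines, lost its call without the filter (adjusted p = 0.051) and without the intensity trend (0.0675).

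With 1 probe set per gene, which tests fewer features, calls numbered 1220 for doxycycline in the BMI1-shRNA line over 3 times (2054 with all probe sets), 322 at 32 h, 789 at 48 h, 558 for the difference between the lines, 6444 between the undosed lines and 746 for 48 h against 0 h in the control-shRNA line; member calls without ADA were 3 between the undosed lines and 0 for 48 h against 0 h in the control-shRNA line. The filter at the 75th percentile gave 167 calls for 48 h against 24 h (97 otherwise); the cause was not tested.

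Leaving out 1 array gave 1787 to 1977 calls over 3 times, 188 to 249 at 24 h (316 with all; 200 without the first undosed and 188 without the second dosed 24 h array), 342 to 477 at 32 h and 1024 to 1161 at 48 h. It gave 16 to 26 in the control-shRNA line (16 without its first undosed 48 h array), 789 to 969 for the difference between the lines and 11844 to 12180 between the undosed lines. For 48 h against 24 h it gave 53 to 91 (53, 54 and 59 without the second undosed 48 h, undosed 24 h or dosed 24 h array). From 0 to 48 h it gave 776 to 1639 in the control-shRNA line (776 without 0 h replicate 2, 819 and 823 without 48 h replicates 2 and 3) and 427 to 665 in the BMI1-shRNA line (444 and 427 without 0 h replicates 1 and 3, 467 and 452 without 48 h replicates 1 and 2). Member calls without ADA ranged from 0 to 1 for 48 h against 24 h and from 7 to 9 between the undosed lines, and did not change elsewhere.

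Replicate numbers did not pair the arrays: deviations from group means correlated at a mean r of 0.00099 for the same number and -0.00049 for different numbers. With the replicate block, calls over 3 times numbered 2052 and member calls were 1, as without it. Signal over background limits the dim NT5E probe sets.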
